A study of Mus musculus with 2 samples.

Results

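The genes described here are 50 genes of the actin cytoskeleton and of cell motility, chosen by name, and all 50 were found among the 46095 gene rows of the deposited count table. RNA had been sequenced from mouse acute myeloid leukaemia (AML) cells that the labels call leukaemia-initiating cells, sorted from bone marrow as positive for Mac1 (the integrin whose alpha chain Itgam encodes) and c-Kit (a growth factor receptor encoded by Kit). One library is labelled wild type, with a title ending in Scr, and the other P2x7-KO, with a title ending in KD; both are from C57BL/6 mice aged 8 weeks. P2x7, the product of P2rx7, is a cation channel that opens when ATP binds outside the cell. The sources used here do not give the oncogene that drove the leukaemia, how P2x7 was removed, or the number of mice behind a library. Since each group holds 1 library, no test between genotypes was possible, no p-value is given, and every interval covers counting error only. Reads are not independent molecules, so the true error is larger.

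Actin monomers (G-actin) assemble into filaments (F-actin) that push the front of a crawling leukocyte forward and, pulled on by myosin, retract its rear. The Arp2/3 complex starts branched filaments, formins and Ena/VASP proteins lengthen unbranched ones, and capping, severing and coronin proteins end or recycle them. Crosslinkers bundle filaments, talin and vinculin couple them to integrins, ezrin, radixin and moesin (the ERM proteins) couple them to the plasma membrane, and the small GTPases Rac, Cdc42 and RhoA direct the whole system. Myeloid cells depend on it for migration from the marrow, adhesion and phagocytosis.

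Total counts were 12456212 for the library labelled wild type and 12435916 for that labelled P2x7-KO. They are given as CPM, counts per 1000000 after TMM scaling, a method that sets the libraries level over most genes. At this depth the 95% Poisson interval of a gene with 0 counts reached up to 0.303 and 0.290 CPM, respectively. P2rx7 itself had 229 counts under the wild type label and 543 under the P2x7-KO label, a ratio of 2.27 (1.94 to 2.66). This gene's counts go against the labels, so each direction below is one between labelled libraries. Of the sort genes, Itgam was 2.90-fold higher (2.77 to 3.04) and Kit had a ratio of 1.47 (1.32 to 1.64). Adjusted for length and GC content, as described below, P2rx7 was still higher under the P2x7-KO label but under 2-fold. Its log2 ratio was then 0.87 (0.65 to 1.10), that of Kit 0.16 (0.003 to 0.31) and that of Itgam 1.22 (1.15 to 1.29). Among marker lists of cell types, 8 of 10 monocyte and macrophage genes were at least 2-fold higher in the library labelled P2x7-KO and 0 lower, and the summed level of the list was 2226 CPM under the wild type label and 5131 CPM under the P2x7-KO label; values below keep this order. Of 11 neutrophil genes 10 reached 20 counts, 1 of them higher and 2 lower, with summed levels of 3479 and 3038 CPM over the list. Over all genes counted, 10.8% were higher and 8.95% lower. With the adjustment for length and GC content described below, Mmp9 and Csf3r joined Mmp8 among the higher neutrophil genes. S100a8 (log2 ratio -0.90) was then no longer among the lower ones, which left Retnlg. Cx3cr1 (0.98) was no longer among the higher monocyte and macrophage genes. Platelets are rich in actin regulators, and what part they have in the results below was not tested. The 8 megakaryocyte and platelet genes together stood at 102.3 and 76.4 CPM, nearly all from Itga2b and Itgb3. Itga2b had 473 and 114 counts and was 4.34-fold lower (3.53 to 5.38), and Itgb3 had a ratio of 1.06 (0.961 to 1.17). Pf4, Ppbp and Gp1ba had 0 counts in both libraries. Summed erythroid, B lymphoid, T and NK, and stromal markers stood at 0.740, 131.4, 25.5 and 1.15 CPM under the wild type label and at 10.7, 94.9, 10.05 and 2.20 CPM under the P2x7-KO label. The B lymphoid genes did not go one way, with 892 and 395 counts for Ighm, 20 and 122 for Igkc and 681 and 684 for Cd79b. Nkg7 supplied 307 and 105 of the 310 and 128 counts of the T and NK list, and Klrb1c had 1 and 14. The part that the monocyte genes' difference has in the results below was not tested, and less RNA per cell and fewer cells of a type cannot be told apart in such bulk libraries.

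Most actin and motility genes differed by less than 2-fold between the libraries. A gene was called when its ratio, P2x7-KO over wild type label, was at least 2, or at most its inverse, and the 95% counting interval excluded 1. Only genes that reached 20 counts, summed over the libraries, were considered, and all 50 did. Called higher in the library labelled P2x7-KO were 3 of 50, namely Vcl, Msn and Rdx, against 10.8% of all 13363 genes counted; adjusted for transcript length, with or without GC content, only Vcl was called. Called lower were 0 of 50, against 8.95% of all genes counted. With the limit at 1.5-fold, 9 were higher (Vcl, Msn, Rdx, Flna, Actr2, Arpc5, Wipf1, Actr3 and Myh9), against 21.1% of all genes, and 3 lower (Tmsb10, Pfn1 and Coro1b), against 18.9%. Adjusted for length and GC content, the log2 intervals of these 3 included 0, and those of the 9 higher genes stayed above it. The median log2 ratio was 0.27 over the 50 genes and 0.01 over all genes counted, and the middle of the members' values ran from -0.08 to 0.46 (quartiles) where that of all genes ran from -0.49 to 0.53. The members are thus shifted slightly upward and spread less than genes at large, but they are also among the most abundant genes, with 40 of 50 in the top 10% by counts.

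Depth makes the intervals of such genes narrow, so many small differences exceed counting error. The interval lay above 1 for 32 members and below 1 for 14, and it included 1 for Arpc3, Arpc4, Capzb and Tpm3, so for 4 of 50; over all genes counted it lay above 1 for 35.6%, below 1 for 34.7% and included 1 for 29.8%. Among the 354 genes with at least as many counts as the median member, 32.5% had an interval above 1 and 61% below it. Of the 25 members of that abundance, 15 lay above and 8 below. At 2-fold, 1 of these 25 (Msn) was called higher, against 3.11% of the 354, and 0 lower, against 11.3%. As a share of all counts, the 50 genes took 2.80% (2.79 to 2.81, Clopper-Pearson) under the wild type label and 3.47% (3.46 to 3.48) under the P2x7-KO label, and Actb, Flna and Myh9, with the largest gains in counts, supplied most of that difference.

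**Figure D1:**
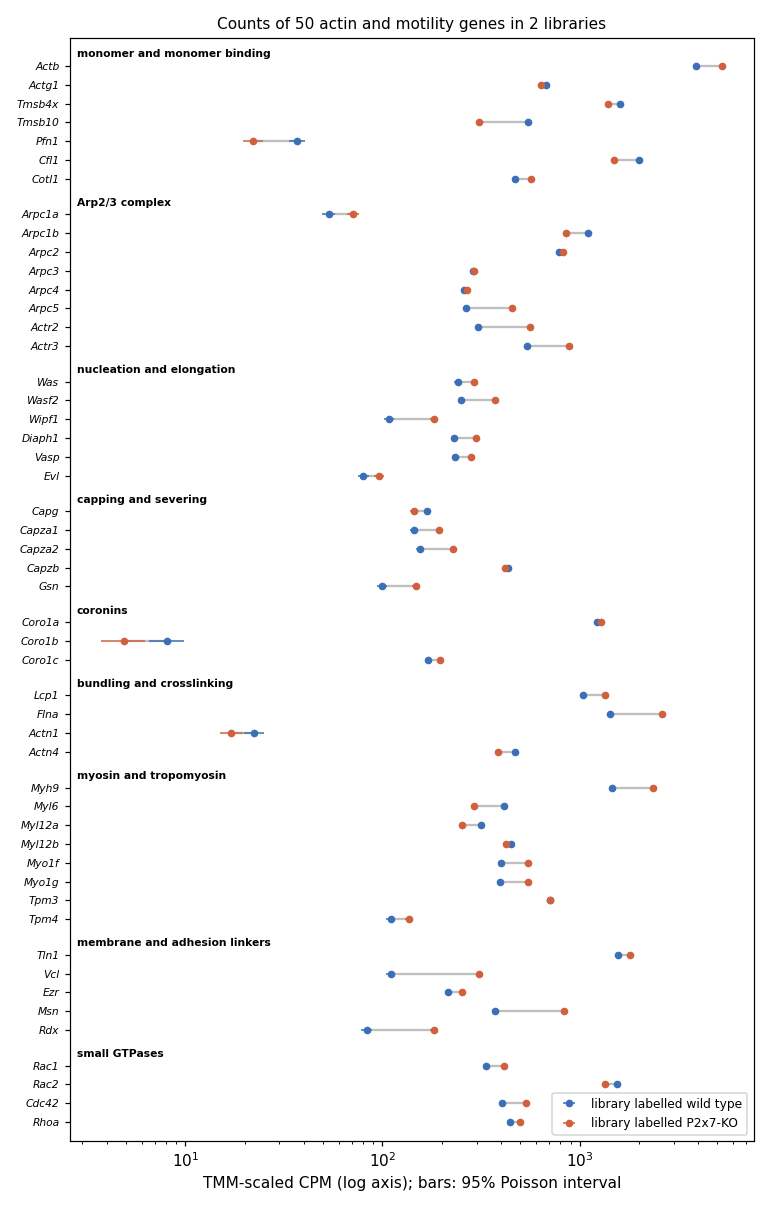
Level of each of the 50 genes, in TMM-scaled CPM on a log axis, in the library labelled wild type (blue) and the library labelled P2x7-KO (orange), grouped by role; bars are 95% Poisson intervals of the counts. Levels ran from 8.06 and 4.87 CPM for Coro1b to 3900.3 and 5273 CPM for Actb, and the widest gaps to the right are those of Vcl, Msn and Rdx.

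The 3 called members were among the 5 membrane and adhesion linkers, and the calls of Msn and Rdx were lost with either adjustment, for length alone or for length and GC content. Vcl encodes vinculin, which is recruited to integrin adhesions under tension and binds talin and actin; the gene lies on the plus strand of chromosome 14 from 20929398 to 21033676 (mm10, GENCODE M21). It had 1338 and 3932 counts, levels of 109.99 and 308.8 CPM, and was 2.81-fold higher (2.64 to 2.99). Exons of Vcl overlap those of Ap3m1 on the opposite strand, which had 585 and 972 counts, and since the sources used here do not say whether counting used strand, reads of these genes may not have been told apart. The same holds for Arpc1b, Evl, Capza1, Coro1b, Coro1c, Lcp1, Actn1, Actn4, Tpm4, Tln1, Ezr, Rac1 and Rhoa, whose exons also overlap a gene on the opposite strand. Msn, on the plus strand of chromosome X from 96096042 to 96168552, encodes moesin, the main ERM protein of leukocytes. It had 4515 and 10570 counts, 371.2 and 830.1 CPM, and was 2.24-fold higher (2.16 to 2.32). Under these adjustments its log2 ratio was 0.98 and 0.90, respectively. Rdx, on the plus strand of chromosome 9 from 52047173 to 52088735, encodes radixin. It had 1011 and 2319 counts, 83.1 and 182.1 CPM, and was 2.19-fold higher (2.03 to 2.36), which puts it just inside the 2-fold limit; its adjusted log2 ratios were 0.87 and 0.70.

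The other linkers of the same group did not reach the limit. Ezr, the third ERM gene, encodes ezrin and stood at 216.1 and 253.3 CPM, a ratio of 1.17 (1.11 to 1.23). Tln1 encodes talin, which activates integrins, and stood at 1568 and 1809.7 CPM, a ratio of 1.15 (1.13 to 1.18) that turned to a log2 ratio of -0.06 with the length and GC adjustment described below. The RNA counts of Vcl and Tln1 therefore did not keep the same proportion in the libraries, nor did those of Msn and Ezr. Protein was not measured. Per kilobase of transcript, which allows levels of different genes to be set side by side, Msn stood at 96.6 and 216.05 CPM, Ezr at 68.3 and 80.1 CPM and Rdx at 18.97 and 41.6 CPM. The order Msn, Ezr, Rdx thus held in both libraries.

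The promoters of the called linkers are shown because cytoskeletal genes are textbook targets of serum response factor (SRF), which binds the CArG box, written as CC, 6 bases that are A or T, and GG. In the RefSeq windows from 250 bases before to 50 after each gene's start (GRCm38.p6), 44 members had at least 1 window, and 4 of them, or 9.09%, held a CArG box. The motif reads as a match on both strands at once and overlaps no other motif searched, since none was. Of all 27025 genes with a window, 1.81% held one. The 4 genes were Vcl, Actg1, Arpc4 and Myl6; the box in Vcl began 227 bases before the start, and the one in Actg1 90 bases before. Their ratios between the libraries did not go one way, since Vcl was called higher while Actg1 had a ratio of 0.944, Arpc4 1.03 and Myl6 0.710. A match is a string of letters and not a measured binding site. The 250 bases before the start follow 5′ to 3′ for Vcl (chr14:20929148-20929397, plus strand), Msn (chrX:96095795-96096044, plus strand), Rdx (chr9:52046900-52047149, plus strand, the upstream one of 2 starts in the table) and, for comparison, Actg1 (chr11:120348496-120348745, minus strand), with CArG boxes in capitals.
Vcl: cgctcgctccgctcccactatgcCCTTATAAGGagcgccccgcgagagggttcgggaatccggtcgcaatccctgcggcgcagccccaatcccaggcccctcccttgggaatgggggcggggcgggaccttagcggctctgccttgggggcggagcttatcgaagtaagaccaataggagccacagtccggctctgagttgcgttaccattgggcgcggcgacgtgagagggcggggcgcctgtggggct
Msn: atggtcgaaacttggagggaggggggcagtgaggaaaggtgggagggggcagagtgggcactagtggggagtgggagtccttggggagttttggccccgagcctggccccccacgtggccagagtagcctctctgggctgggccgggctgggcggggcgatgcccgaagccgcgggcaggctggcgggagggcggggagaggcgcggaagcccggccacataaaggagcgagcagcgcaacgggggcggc
Rdx: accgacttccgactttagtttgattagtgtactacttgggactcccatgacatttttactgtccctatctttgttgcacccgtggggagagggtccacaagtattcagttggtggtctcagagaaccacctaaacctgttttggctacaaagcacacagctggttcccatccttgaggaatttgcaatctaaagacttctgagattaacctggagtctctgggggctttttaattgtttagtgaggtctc
Actg1: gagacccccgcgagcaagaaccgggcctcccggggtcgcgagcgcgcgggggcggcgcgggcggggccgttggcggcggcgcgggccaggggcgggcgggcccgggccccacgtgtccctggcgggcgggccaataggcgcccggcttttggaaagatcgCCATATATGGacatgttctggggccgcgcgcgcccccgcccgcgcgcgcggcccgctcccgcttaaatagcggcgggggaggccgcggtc

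Base composition differed among these windows, with G or C at 67.2% of bases for Vcl, 71.6% for Msn, 45.2% for this start of Rdx and 79.2% for Actg1. No CArG box was found in the printed stretches of Msn and Rdx, which says only that these letters are not there.

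**Figure D2:**
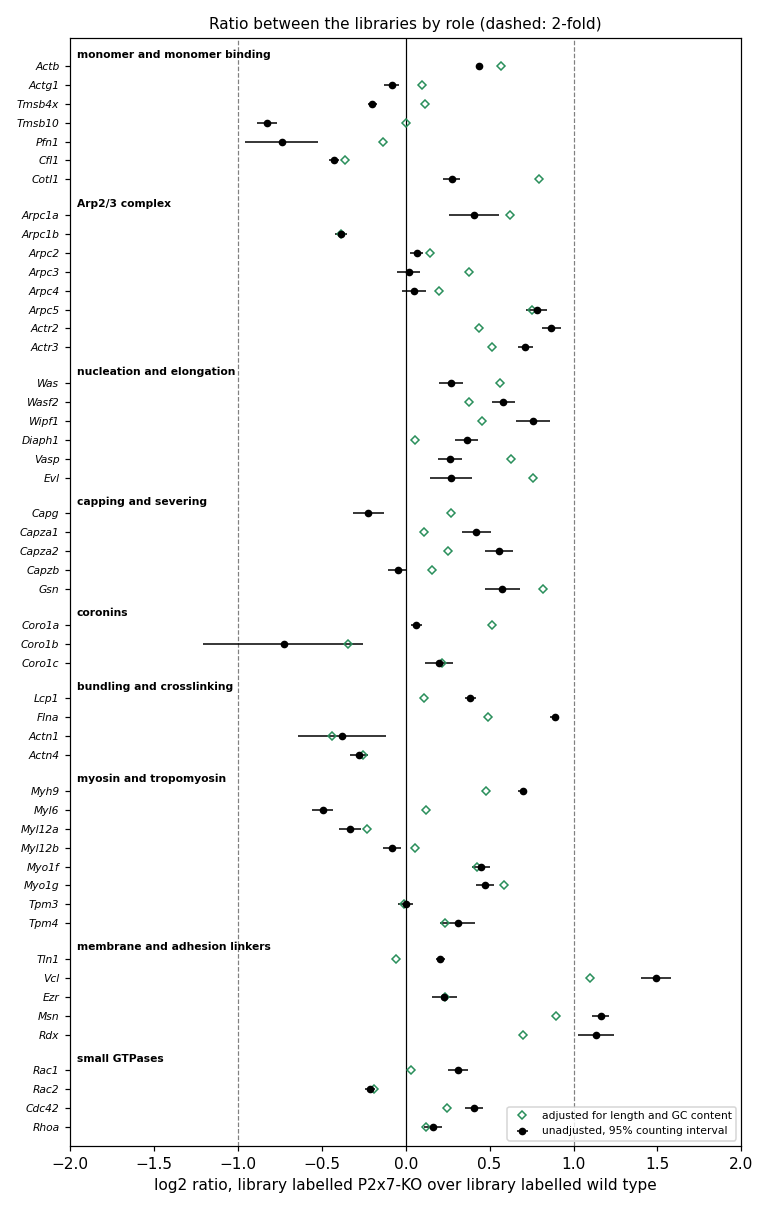
Log2 ratio of each gene, library labelled P2x7-KO over library labelled wild type, by role: black points with 95% counting intervals are unadjusted, green diamonds are adjusted for transcript length and GC content, and dashed lines mark 2-fold. Only Vcl, Msn and Rdx lie beyond 2-fold before adjustment, and only Vcl does after it.

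Transcript length moved with the ratio between these libraries, over all genes and over the members. Among all genes counted, the median log2 ratio was -0.66 for transcripts under 1000 bases, -0.29 from 1000 to 2000, 0.03 from 2000 to 4000 and 0.44 for longer ones. The members followed the same order, with medians of -0.49 (5 genes), 0.06 (11 genes), 0.27 (25 genes) and 0.70 (9 genes). All 9 members longer than 4000 bases had an interval above 1 and 0 of the 5 under 1000 bases did. A smooth fit of the log2 ratio on length and GC content over 12651 genes accounted for 20.4% of the deviance, and length alone for 15.2%. Adjustment for length alone left 1 member called higher, against 8.39% of genes, and 0 lower, against 5.83%. With both adjusted for, 1 member remained called higher, against 8.02% of genes, and 0 lower, against 5.38%, and the median over the members was 0.235 (-0.01 over all genes). The called linkers have transcripts of 5267 (Vcl), 3842 (Msn) and 4380 bases (Rdx). Vcl kept an adjusted log2 ratio of 1.10 (1.01 to 1.19) from 1.49, while Msn came to 0.90 from 1.16 and Rdx to 0.70 from 1.13, both under 2-fold.

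**Figure D3:**
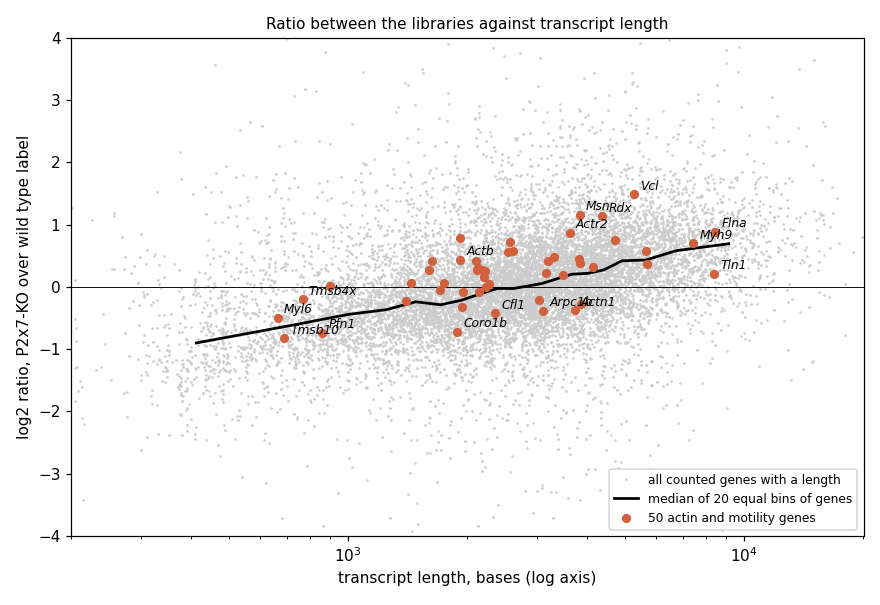
Log2 ratio, P2x7-KO over wild type label, against transcript length on a log axis, for all counted genes with a length (grey), the 50 actin and motility genes (orange) and the median of equal bins of genes (black line). The line climbs from below 0 at short transcripts to above 0 at long ones; short members such as Tmsb10 and Myl6 and long ones such as Flna and Myh9 lie near it, and Vcl lies above it.

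Actin itself and the proteins that hold its monomers gave values on both sides of equality, with 0 of 7 called, 2 intervals above 1 and 5 below it. Actb encodes beta-actin and lies on the minus strand of chromosome 5 from 142903115 to 142906754. It had 47446 and 67151 counts, 3900.3 and 5273 CPM, a ratio of 1.35 (1.34 to 1.37). Actg1 encodes gamma-actin, the other cytoplasmic actin, and had 8247 and 8152 counts, 677.9 and 640.2 CPM, a ratio of 0.944 (0.916 to 0.974). The cytoplasmic actins hence stood on opposite sides of equality before adjustment; after it Actg1 came to a log2 ratio of 0.10 and Actb to 0.57. Actg1 has 6 near-identical processed pseudogenes in the annotation, and those of them in the table took 1005 and 1240 counts, so its own count is uncertain. With these counts added, its ratio was 0.970.

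The thymosin, cofilin and profilin genes lay below equality before adjustment. Tmsb10, which encodes the monomer-sequestering peptide thymosin beta 10, had 6677 and 3940 counts, 548.9 and 309.4 CPM, or 1.77-fold less in the library labelled P2x7-KO (1.71 to 1.85). Tmsb4x, which encodes thymosin beta 4, the main sequestering peptide of leukocytes, stood at 1607 and 1400.7 CPM, a ratio of 0.872 (0.854 to 0.889). Cfl1 encodes cofilin, which severs aged filaments, and stood at 2009.8 and 1495 CPM, a ratio of 0.744 (0.730 to 0.758). Adjusted for length alone, Tmsb10 still lay below equality, at a log2 ratio of -0.27, and Tmsb4x above it at 0.32. With GC content added, Tmsb10 lay at 0.00 (-0.05 to 0.06) and Tmsb4x at 0.12, while Cfl1 stayed at -0.36 from -0.43. For Cfl1 this rests on an annotated transcript of 2354 bases, and the isoform present was not measured. Cotl1, which encodes the actin-binding protein coactosin-like 1, stood at 470.2 and 568.9 CPM, a ratio of 1.21 (1.17 to 1.25). Pfn1 encodes profilin, which feeds monomers to growing filaments, and had only 448 and 281 counts, 36.8 and 22.1 CPM, a ratio of 0.599 (0.514 to 0.697). Adjusted for length and GC content, its log2 ratio was -0.14 (-0.36 to 0.08). Per kilobase its 42.8 and 25.6 CPM were far under the 853.8 and 635.04 CPM of Cfl1. In RefSeq the spans of Pfn1 and Eno3, a muscle enolase gene, overlap, Eno3 had 16 and 31 counts, and the sources used here do not say how shared reads were counted, so the level of Pfn1 is uncertain.

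The subunits of the Arp2/3 complex did not differ between the libraries by one common factor. None of the 8 was called, 5 had an interval above 1, Arpc1b had one below 1, and Arpc3 and Arpc4 included 1. The actin-related subunits that form the first pair of a new branch were both toward the upper side: Actr2 stood at 305.7 and 557.9 CPM, a ratio of 1.82 (1.75 to 1.899), and Actr3 at 541.2 and 887.7 CPM, a ratio of 1.64 (1.59 to 1.69). Arpc5, a small peripheral subunit, stood at 264.5 and 454.3 CPM, a ratio of 1.72 (1.64 to 1.79). The scaffold subunit Arpc2 stood at 785.3 and 821.6 CPM (1.05, 1.02 to 1.08). Arpc3 stood at 288.4 and 291.8 CPM (1.01, 0.966 to 1.06) and Arpc4 at 259.6 and 268.3 CPM (1.03, 0.985 to 1.09). Arpc4 overlaps exons of Ttll3 on the same strand, which had 2176 and 1401 counts.

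The exchangeable Arpc1 subunits stood on opposite sides. Arpc1b, the form that dominates in blood cells, had 13509 and 10819 counts, 1110.5 and 849.6 CPM, a ratio of 0.765 (0.746 to 0.785). Arpc1a had 650 and 902 counts, 53.4 and 70.8 CPM, a ratio of 1.33 (1.20 to 1.47). Within the pair, Arpc1b thus took 95.4% (95.05 to 95.7) of counts under the wild type label and 92.3% (91.8 to 92.8) under the P2x7-KO label. A share within a pair does not depend on how the libraries are scaled. Adjusted in the same way, Actr2 and Actr3 came to log2 ratios of 0.44 and 0.51, Arpc5 stayed at 0.75, and Arpc1b stayed at -0.38. The value of Arpc1b rests on an annotated transcript of 3105 bases.

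None of the 6 genes of nucleation and elongation was called. All 6 had an interval above 1 in the library labelled P2x7-KO, against 35.6% of all genes counted. Adjusted for length and GC content, the log2 interval of Diaph1 included 0 and those of the others stayed above it. Wipf1 encodes WIP, which stabilises the Wiskott-Aldrich syndrome protein, and stood at 107.8 and 182.3 CPM, a ratio of 1.69 (1.58 to 1.81). Was encodes that protein, the haematopoietic activator of Arp2/3, and stood at 240.4 and 290.1 CPM, a ratio of 1.21 (1.15 to 1.27). Wasf2 encodes WAVE2, the activator that acts under Rac, and stood at 249.99 and 374.4 CPM, a ratio of 1.498 (1.43 to 1.57). The formin gene Diaph1 stood at 231.7 and 297.9 CPM (1.29, 1.22 to 1.35), and its log2 ratio of 0.36 came to 0.06 (-0.01 to 0.13) after adjustment. Of the Ena/VASP genes, Vasp had a ratio of 1.20 (1.14 to 1.26) at 233.7 and 280.2 CPM and Evl one of 1.21 (1.11 to 1.31) at 79.8 and 96.2 CPM. Evl took 25.5% and 25.6% of the counts of that pair, a change within counting error before adjustment.

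Of the 5 capping and severing genes none was called. Gsn encodes gelsolin, a calcium-driven severing and capping protein, and stood at 99.6 and 148.3 CPM, a ratio of 1.49 (1.38 to 1.60), with an adjusted log2 ratio of 0.82. Capg encodes a gelsolin relative that caps without severing and stood at 168.8 and 144.7 CPM, a ratio of 0.857 (0.804 to 0.913), which turned to an adjusted log2 ratio of 0.27. The capping protein is a heterodimer of 1 alpha and 1 beta chain: Capza1 and Capza2 had ratios of 1.34 (1.26 to 1.42) and 1.47 (1.39 to 1.56), at 145.01 and 194.2 CPM and at 155.6 and 228.8 CPM. Capzb, the beta chain gene, stood at 431.6 and 417.5 CPM, a ratio of 0.967 (0.931 to 1.01). The coronin gene Coro1a, whose product recycles filaments in leukocytes, stood at 1224 and 1278 CPM (1.04, 1.02 to 1.07), and Coro1c at 170.7 and 195.7 CPM (1.15, 1.08 to 1.22). Coro1b, with 98 and 62 counts the least abundant of all 50, had a ratio of 0.604 (0.432 to 0.839). Its log2 ratio adjusted for length and GC content was -0.34 (-0.83 to 0.13).

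The bundling and crosslinking genes split evenly, with 2 intervals above 1 and 2 below. Flna encodes filamin A, which crosslinks filaments into a gel and ties them to the membrane; it lies on the minus strand of chromosome X from 74223461 to 74249820. It had 17291 and 33484 counts, 1421 and 2629.5 CPM, a ratio of 1.85 (1.82 to 1.88), the nearest of the uncalled members to the limit. With 8456 bases it has the longest transcript of the 50, and its log2 ratio of 0.89 came to 0.49 after adjustment. Lcp1 encodes L-plastin, the leukocyte bundling protein, and stood at 1036 and 1351 CPM (1.31, 1.28 to 1.34). The alpha-actinin genes lay on the other side, Actn4 at 470.96 and 387.9 CPM (0.824, 0.793 to 0.856) and Actn1 at 22.3 and 17.1 CPM (0.768, 0.640 to 0.922), and both stayed below equality after adjustment.

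Heavy and light chains of myosin differed in direction, though Myl6 and Myl12b turned to the side of the heavy chain once length and GC content were adjusted for. Myh9 encodes the heavy chain of non-muscle myosin IIA, the motor of rear retraction, and lies on the minus strand of chromosome 15 from 77760587 to 77842175. It had 17769 and 30174 counts, 1461 and 2370 CPM, a ratio of 1.62 (1.59 to 1.65). The essential light chain gene Myl6 stood at 412.2 and 292.5 CPM, a ratio of 0.710 (0.680 to 0.741), and the regulatory light chain genes Myl12a and Myl12b had ratios of 0.795 (0.758 to 0.833) and 0.945 (0.910 to 0.981). The transcript of Myh9 has 7433 bases and that of Myl6 665, and after adjustment their log2 ratios were 0.48 and 0.12, on the same side. Myl6 has 5 near-identical pseudogenes, and with their counts its ratio was 0.701; Myl12a and Myl12b are neighbours that share annotated exons. The class I myosin genes Myo1f and Myo1g, of blood cell membranes, had ratios of 1.36 (1.31 to 1.41) and 1.39 (1.34 to 1.44), at 400.3 and 545.6 CPM and at 394.01 and 546.02 CPM, and per kilobase at 104.5 and 142.4 CPM and at 119.1 and 165.1 CPM, so Myo1g was the higher of the pair in both libraries. Of the tropomyosin genes, whose products coat filaments, Tpm3 stood at 712.2 and 711.6 CPM (0.999, 0.970 to 1.03) and Tpm4 at 109.9 and 136.2 CPM (1.24, 1.15 to 1.33). The annotation holds a near-identical gene to Tpm3, Tpm3-rs7, which had 899 and 1099 counts.

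Among the small GTPase genes 0 of 4 were called. Rac2, the haematopoietic Rac that drives motility and the oxidative burst, stood at 1554 and 1341 CPM, a ratio of 0.863 (0.845 to 0.881). Rac1, its widely expressed relative, stood at 333.3 and 413.9 CPM, a ratio of 1.24 (1.19 to 1.29). Rac2 took 82.3% (81.8 to 82.8) of the counts of this pair under the wild type label and 76.4% (75.8 to 77.0) under the P2x7-KO label. Cdc42, which controls polarity, stood at 402.2 and 533.1 CPM (1.33, 1.28 to 1.38) and Rhoa, which drives contraction, at 443.4 and 496.9 CPM (1.12, 1.08 to 1.16).

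Proportions within 15 pairs of related members were compared because they need no scaling. The largest moves, as the change in the log2 ratio of the first gene to the second, were those of Msn against Ezr (0.93, 0.84 to 1.02), Arpc1b against Arpc1a (-0.79, -0.94 to -0.64), Coro1a against Coro1b (0.79, 0.33 to 1.25), Tmsb4x against Tmsb10 (0.63, 0.56 to 0.69), Rac2 against Rac1 (-0.53, -0.59 to -0.46) and Actb against Actg1 (0.52, 0.47 to 0.57). Msn took 63.2% (62.1 to 64.3) of the counts of Msn and Ezr under the wild type label and 76.6% (75.9 to 77.3) under the P2x7-KO label. Adjusted for length and GC content, the changes were 0.66 for Msn against Ezr, -1.004 for Arpc1b against Arpc1a, 0.86 for Coro1a against Coro1b, 0.11 for Tmsb4x against Tmsb10, -0.22 for Rac2 against Rac1 and 0.47 for Actb against Actg1, so the order of the pairs changed and Msn against Ezr no longer came first. With this adjustment Actr2 against Actr3 turned from 0.15 (0.08 to 0.23) to -0.08, and Coro1a against Coro1c from -0.13 (-0.22 to -0.04) to 0.30. Unadjusted intervals of the change included 0 for Actn4 against Actn1, Myo1f against Myo1g, Msn against Rdx and Evl against Vasp. Msn took 81.7% and 82.0% of the counts of Msn and Rdx. Adjusted, the changes of these 4 pairs were 0.185 for Actn4 against Actn1, -0.16 for Myo1f against Myo1g, 0.19 for Msn against Rdx and 0.13 for Evl against Vasp; those of Myo1f against Myo1g and Msn against Rdx lie outside the unadjusted intervals, which ran from -0.10 to 0.05 and from -0.09 to 0.15.

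**Figure D4:**
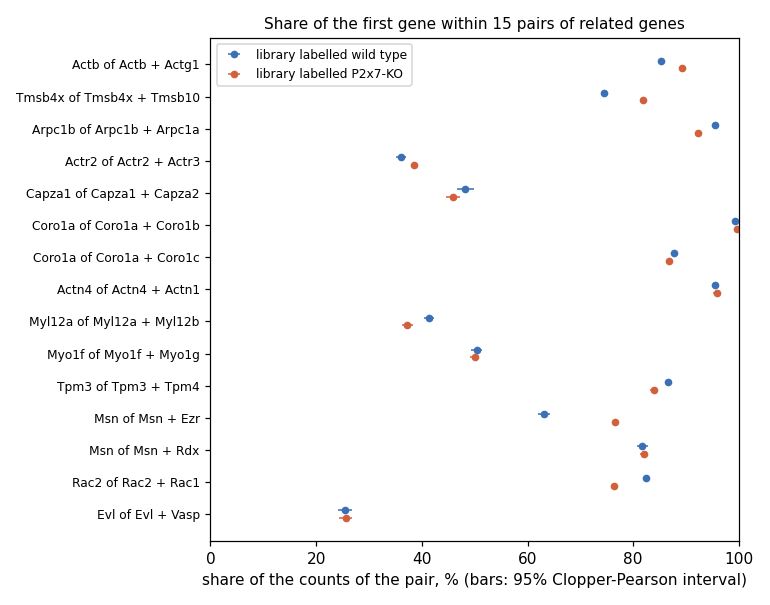
Share of the first gene in the summed counts of each of 15 pairs of related genes, in percent, in the library labelled wild type (blue) and the library labelled P2x7-KO (orange), with 95% Clopper-Pearson intervals. Msn of Msn and Ezr moves from 63.2% to 76.6%, while Evl of Evl and Vasp and Msn of Msn and Rdx stay in place.

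Other genes of the pathway were fixed as a list of 120 by function, of which 107 had at least 20 counts. Their median ratio was higher than that of the 50 before adjustment and with length and GC content adjusted for, but not with length alone. Called higher in the library labelled P2x7-KO were 15, against 10.8% of all genes counted, and lower 2, against 8.95%. Their median log2 ratio was 0.42, against 0.27 over the 50 and 0.01 over all genes counted. Adjusted for length alone, the medians were 0.24 for the list and 0.27 for the 50, and for length and GC content 0.26 and 0.235. With the latter, 4 genes of the list were called higher, against 8.02% of all genes, and 4 lower, against 5.38%. The counts by group that follow are unadjusted. Of 14 partners of WAVE and WASP 1 was called higher and 1 lower, of 26 turnover and assembly genes 5 and 1, of 16 adhesion adaptors 3 and 0, of 7 myosins and tropomyosins 0 and 0, and of 3 genes of SRF control 1 and 0.

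Several of these genes act on the members described above. Stk10 encodes a kinase that phosphorylates ERM proteins, had 1506 and 3744 counts, 123.8 and 294.02 CPM, and was 2.37-fold higher (2.24 to 2.52); its log2 ratio adjusted for length and GC content was 1.12, past 2-fold, and that for length alone 0.91. Parvb encodes beta-parvin, a partner of integrin-linked kinase, and with 18 and 93 counts was 4.94-fold higher (2.96 to 8.69). Iqgap1, a scaffold of Rac and Cdc42, stood at 331.6 and 765.7 CPM and was 2.31-fold higher (2.23 to 2.40). The cofilin phosphatase gene Ssh2 was 2.65-fold higher (2.44 to 2.89), the formin gene Diaph2 2.53-fold (2.27 to 2.83) and the Rac exchange factor gene Dock5 2.43-fold (2.18 to 2.70). With length and GC content adjusted for, Iqgap1, Ssh2, Diaph2 and Dock5 were under 2-fold, with log2 ratios of 0.68, 0.71, 0.99 and 0.63; for length alone Diaph2 was at 1.17. On the other side, Marcksl1, which encodes a membrane and actin binding protein of the MARCKS family, had 647 and 190 counts, 53.2 and 14.9 CPM, and was 3.56-fold lower (3.03 to 4.21). Cttn, the cortactin gene, was the other one called lower, with 31 and 2 counts, a ratio of 0.0616 (0.00715 to 0.242).

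**Figure D5:**
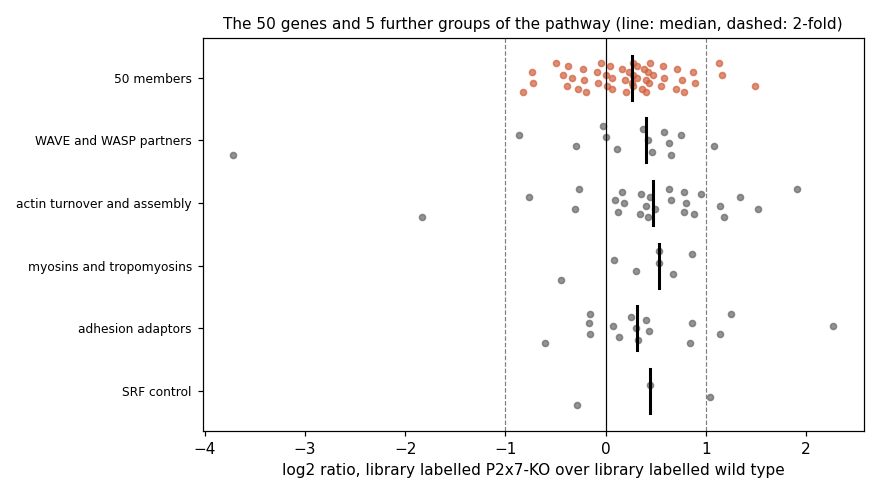
Log2 ratio, library labelled P2x7-KO over library labelled wild type, of the 50 genes (orange) and of 5 further groups of the pathway (grey, genes with at least 20 counts), each point a gene, black lines the group medians and dashed lines 2-fold. All group medians lie above 0, and the points furthest left are Cttn and Marcksl1.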

How the data were processed

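The authors deposited 1 table of raw counts per gene for both libraries, with 0 value columns left unused. The submitters' processing notes name HISAT2 2.0.4 and mm10. How reads were counted (program, annotation, strand, multiple matches) is not given in the sources used. Counts were scaled with TMM (edgeR 4.0.16, R 4.3.3). Ratio intervals are 95% Clopper-Pearson intervals of a gene's share of counts in 1 library, and CPM intervals are Poisson intervals. Log2 ratios of single genes, medians and adjusted values have 0.5 added to each count. Intervals of changes within pairs are normal approximations on the log scale. Transcript length and GC content are those of the longest APPRIS principal transcript in GENCODE M21 (GRCm38, the assembly of mm10), and the adjustment is a smooth fit (mgcv 1.9.3). Adjusted and per-kilobase values depend on this choice of transcript, since the isoforms present were not measured. Near-identical copies are transcripts of other genes with at least 95% identity over 200 bases (blastn 2.17.0). The interval and call were tried only on simulated Poisson counts with equal scaling, the model that the interval itself assumes. That trial therefore cannot show how the call fares on real libraries. Members, lists and pairs were chosen with earlier results of these data known. Genes with values were named by rule: members, and pathway genes called with at least 100 counts, up to 6 a direction; Cttn, with fewer counts, was added after its values were seen. Alternatives were other scalings (total count, DESeq2 1.42.0, upper quartile, TMM without these genes), other count filters, a 1.5-fold call, both adjustments and, chosen after seeing the data, counts summed with copies. One marker and the count of one group of the pathway list are not reported here.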

Additional observations from a re-analysis of the deposited data

How the results depend on the processing

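The 3 members called higher and 0 called lower stayed at those counts under every other scaling and count filter and with copies added. Adjustment for length alone, or for length and GC content, left 1 called higher, and a 1.5-fold call gave 9 higher and 3 lower, against 21.1% and 18.9% of all genes. The members' median log2 ratio of 0.27 was 0.33 with total count scaling and lay from 0.23 (upper quartile) to 0.30 (DESeq2) elsewhere. In the pathway list 15 called higher became 5 with length adjustment, 4 with length and GC content and 41 at 1.5-fold. The shares of all genes under these settings were 8.39%, 8.02% and 21.1%. The 2 called lower became 4 and 4 with these adjustments, against 5.83% and 5.38% of all genes. They became 6 at 1.5-fold, against 18.9%, and 1 with at least 100 counts. The median of the list, 0.42, became 0.24 and 0.26 with the adjustments. Another scaling turned the side of Capzb and Tpm3 (total count), Tpm3 (DESeq2, or TMM without these genes) or Arpc3 (upper quartile), and so did adding copies for Tpm3. Adjustment for length and GC content turned 8: Actg1, Tmsb4x, Tmsb10 (to 0.00), Capg, Capzb, Myl6, Myl12b and Tln1; that for length alone turned 9, namely these without Tmsb10 and with Diaph1 and Tpm3. No paired analysis was possible because each group holds 1 library. Depth limits Coro1b, Actn1 and Pfn1 most, and no setting can replace replicates.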

Other observations

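Rows of near-identical copies of the members carried counts of their own. The Actg1 pseudogene Gm12715 had 610 counts under the wild type label and 797 under the P2x7-KO label, and the Myl6 pseudogene Gm5526 had 649 and 452. The Actr3 pseudogene Gm8822 had 281 and 653 counts, and the Capza1 pseudogene Gm3608 had 305 and 548. The Tmsb10 copy Gm9844 had 120 and 58. In all, 14 members had such a copy in the annotation; whether these reads came from the members or from the copies cannot be told from counts per gene.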
